A study of Mus musculus with 8 samples.

Results

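The coagulation and plasminogen activation genes described here are Thbd, Tfpi, Tfpi2, F3, F2r, Plau, Plaur, Plat and Serpinb2. They are 9 of the 18883 gene symbols named on the array, and they were taken as every probe whose transcript accession belongs to a member, which gave 16 probes. The genes were proposed after values of these same arrays had been seen, so the comparisons of members between groups are descriptions. Calls of members by the fit across all probes are counted, but no p-value is given for them and nothing is supported with them.

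Gene expression was measured in mammary tumour cell lines from FVB mice with the polyoma middle T (PyMT) transgene, on 2-colour arrays with the sample in Cy5 and a reference RNA mixed from 11 mouse cell lines in Cy3. All 8 samples came from cells that had received 50 uM camptothecin, which traps topoisomerase I on DNA, for 36 h. No untreated sample was analysed here. A line from wild-type mice, called WTA, carried either an Snd1 short hairpin RNA in the LKO1 vector (Snd1 knockdown, 3 arrays) or the empty LKO1 vector (vector, 3 arrays), after selection in puromycin. A line from Mtdh-knockout mice, called KO2, had regained Mtdh as the wild-type form (1 array) or as the W391D mutant, whose binding to Snd1 is impaired (1 array), each from a lentivirus with a GFP marker by which the cells were sorted. Each rescue construct therefore rests on 1 array, and line, construct and slide cannot be told apart when the rescue arrays are set against vector.

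Coagulation starts when tissue factor, encoded by F3, binds factor VII on a cell surface and sets off the proteases that make thrombin. Tissue factor pathway inhibitor (Tfpi) blocks that first step, thrombomodulin (Thbd) binds thrombin and turns it towards activating protein C, and thrombin signals to cells through the receptor F2r (PAR1). Plasminogen is turned into the matrix- and clot-degrading protease plasmin by the urokinase (Plau) and tissue-type (Plat) activators. The urokinase receptor (Plaur) holds urokinase at the cell surface and Serpinb2 (PAI-2) inhibits it. Tumour cells, endothelium, fibroblasts and macrophages are all known to express genes of this group.

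Promoter sequence was matched in a RefSeq table (build GRCm38.p6) for 6 of the 9 genes, in 10 windows that run from 250 bases before to 50 after an annotated start. The AP-1 motif, which Fos and Jun proteins bind, was searched as TGANTCA on both strands. It was found in 6 of the 10 windows and in 5 of the 6 genes, against 7.81% of all 32851 windows and 8.97% of the 27025 genes in the table. The 250 bases before the start are shown for 1 window of each gene that holds it, because this motif stood in most of these genes and in few of the table's, a choice made after the matches were seen. Capitals mark the motif, and the sequences run 5′ to 3′ on the strand of the gene.
F3, chr3:121723287-121723536, plus strand: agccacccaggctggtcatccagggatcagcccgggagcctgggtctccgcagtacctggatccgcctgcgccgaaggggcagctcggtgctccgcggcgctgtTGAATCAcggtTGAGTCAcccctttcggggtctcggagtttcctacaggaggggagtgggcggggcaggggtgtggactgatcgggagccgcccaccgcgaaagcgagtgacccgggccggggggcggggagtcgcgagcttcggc
Plaur, chr7:24462233-24462482, plus strand: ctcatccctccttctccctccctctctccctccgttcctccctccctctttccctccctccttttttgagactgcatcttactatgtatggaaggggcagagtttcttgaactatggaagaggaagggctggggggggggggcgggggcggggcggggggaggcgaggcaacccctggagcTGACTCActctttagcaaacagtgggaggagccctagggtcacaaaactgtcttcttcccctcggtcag
Serpinb2, chr1:107511173-107511422, plus strand: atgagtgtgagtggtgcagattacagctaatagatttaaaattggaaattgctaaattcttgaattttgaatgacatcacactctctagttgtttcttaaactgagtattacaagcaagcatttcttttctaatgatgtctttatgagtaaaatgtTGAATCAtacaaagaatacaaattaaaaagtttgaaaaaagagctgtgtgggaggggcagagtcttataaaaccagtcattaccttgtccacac
F2r, chr13:95618467-95618716, minus strand: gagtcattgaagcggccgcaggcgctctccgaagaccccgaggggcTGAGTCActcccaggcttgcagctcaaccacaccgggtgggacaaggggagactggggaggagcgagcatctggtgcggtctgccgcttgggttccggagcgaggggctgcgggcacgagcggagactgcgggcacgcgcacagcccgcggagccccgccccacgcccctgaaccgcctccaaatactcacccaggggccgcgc
Tfpi2, chr6:3968376-3968625, minus strand: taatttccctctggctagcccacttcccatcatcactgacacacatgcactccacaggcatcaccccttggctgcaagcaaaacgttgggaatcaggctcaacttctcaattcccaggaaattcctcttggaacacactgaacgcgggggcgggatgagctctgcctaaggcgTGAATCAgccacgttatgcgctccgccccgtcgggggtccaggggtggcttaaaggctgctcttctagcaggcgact
F3 held the motif at 146 and 135 bases before the start, Plaur at 69, Serpinb2 at 94, F2r at 204 and Tfpi2 at 77, none of them overlapping another motif searched. The GC-rich motif of SP1 and KLF factors, GGGCGG, also stood in 5 of the 6 genes, against 38.2% of genes in the table, and the EGR motif GCGNGGGCG in Tfpi2 and Plaur, overlapping GGGCGG in both. The letters TATAAA of the TATA box stood in 3 of the 6 genes and the E-box CANNTG in 3, against 15.7% and 75.0% of genes. TATAAA lay 29 bases before the start in the Serpinb2 window shown. In Tfpi and F3 it was read as TTTATA, 127 bases before the start and 44 after it. Neither the CRE motif TGACGTCA nor the TEAD motif CATTCC was found in these windows (2.03% and 16.6% of genes). The 2 Tfpi windows held no AP-1 letters, and neither did the Tfpi2 windows that are not shown. The Serpinb2 windows overlap and hold the same match, so that site enters the count of windows more than once. These matches describe letters in the reference genome, and no binding was measured.

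Levels are given as the log2 ratio of sample to reference on the same spot, so 0 means equal to the reference, and they compare one probe across arrays but not one gene with another. The median Cy5 signal of an array was 158 to 363 over a background of 61 to 72. Log ratios correlated at 0.978 to 0.992 within the knockdown and vector groups and at 0.854 to 0.874 between them. The first replicates of knockdown and vector were hybridised on one slide and the other 4 arrays of the WTA line on another, while the rescue arrays had separate slides. Whether replicates were separate cultures is not stated in the labels, so p-values reflect the spread between arrays alone, and that spread may be technical. The hairpin's target Snd1 stood at -3.23, -3.33 and -3.44 in the knockdown and -2.49, -2.40 and -2.43 in vector, a difference of -0.90 ± 0.06 (SE, n = 3 and 3, limma adjusted p = 8.66e-06). All 8 luminal epithelial markers examined, keratins 8, 18 and 19, Epcam and E-cadherin (Cdh1) among them, were well above background on all 8 arrays. So were 6 of 6 basal, 8 of 9 fibroblast, 7 of 9 endothelial, 6 of 7 leukocyte and 4 of 5 hepatocyte markers. A signal above background therefore does not tell these cell types apart.

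In the Snd1 knockdown, 8 of the 9 genes stood higher than in vector and Plau stood slightly lower. Thbd and Tfpi2 differed most, at 17.1-fold and 7.53-fold higher. The 3 Tfpi probes stood 3.95-, 3.01- and 1.38-fold higher, the last of them below Plaur and Serpinb2. Tfpi2 and the Tfpi probe of largest difference were well above background on 1 of 3 vector arrays, so their folds are uncertain. By the log ratios of the scanner software the log2 differences were 4.79 for Tfpi2, 4.22 for Thbd and 4.19 for that Tfpi probe. This turns the order of Thbd and Tfpi2. The urokinase receptor Plaur and the urokinase inhibitor Serpinb2 differed by 1.43- to 1.54-fold, and F3, Plat and F2r by less. All 16 probes had passed the filter on dim signal, which asked for a Cy5 signal well above background in 3 or more of these 6 arrays. At an adjusted p under 0.05 in limma, 13 of the 16 were called higher and 1 lower, where 45.7% of all 33563 probes tested were called, 23.6% higher and 22.1% lower. The Tfpi2 probe and 2 of the Tfpi probes passed the filter on dim signal with fewer than 3 vector arrays, and with a signal well above background required on all 6 arrays 10 were called higher. The knockdown and vector values of the same 14 probes did not overlap, which held for 53.9% of all probes (28.4% higher and 25.5% lower). The median difference of the 16 was 0.49 on the log2 scale, against 0.018 over all probes. Because the members were chosen on these values, nothing is read from those shares. In bulk RNA, fewer cells that express a gene and less of its RNA per cell cannot be told apart.

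**Figure D1:**
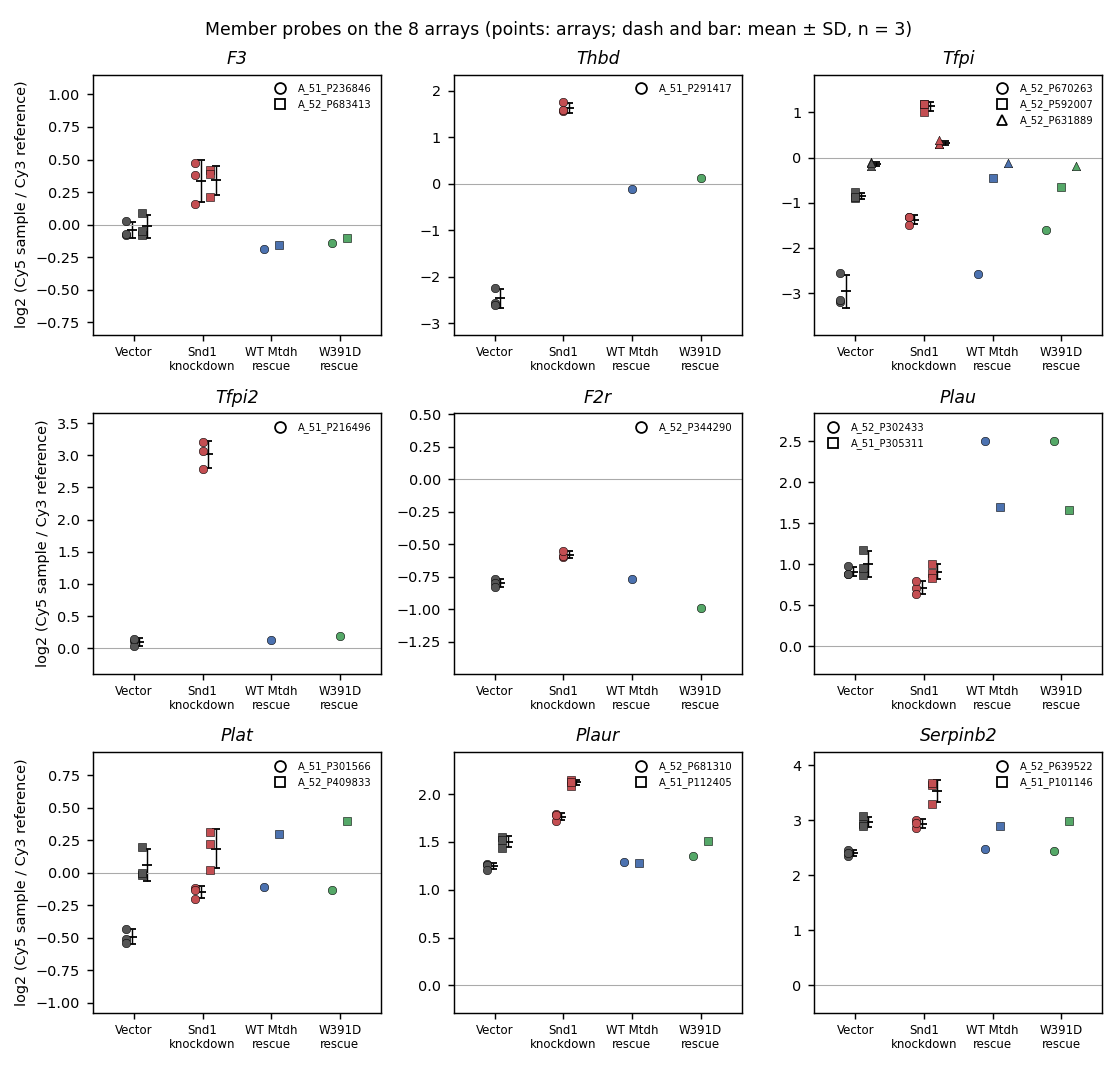
Log2 ratio of Cy5 sample to Cy3 reference for the 16 probes of the 9 genes, with 1 point per array, a symbol per probe, and the mean ± SD beside the groups of 3. Thbd and Tfpi2 were highest in the 3 knockdown arrays, Plau was highest in the 2 rescue arrays, and the vertical scale differs between panels.

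Tissue factor, the initiator, was measured by 2 probes. By the brighter F3 probe the knockdown arrays stood at 0.16, 0.47 and 0.38 and vector at 0.03, -0.08 and -0.07. The other F3 probe gave 0.21, 0.42 and 0.39 against 0.09, -0.08 and -0.05. Each knockdown value lay above each vector value, though knockdown replicate 1 lay close to vector replicate 1 on the same slide. The differences were 0.38 ± 0.08 and 0.35 ± 0.07 (SE, n = 3 and 3). Within the slide of the first replicates they came to 0.14 and 0.11, and within the other slide to 0.50 and 0.47. The wild-type and W391D rescue arrays stood at -0.19 and -0.14 by the brighter probe, both just below the vector arrays.

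Thrombomodulin differed widely between groups and was measured well above background on all 8 arrays. Thbd stood at 1.76, 1.56 and 1.58 in the knockdown and at -2.24, -2.55 and -2.60 in vector, and at -0.12 and 0.13 in the wild-type and W391D rescue arrays. The order was thus knockdown, then the 2 rescue arrays, then vector, with no overlap between these levels. The difference between knockdown and vector was 4.10 ± 0.10 (SE, n = 3 and 3), and reached 4.15 within the slide of replicates 2 and 3. The spots were bright, with Cy5 signals of 7104.5, 12788 and 11488 in the knockdown, 487, 803 and 728 in vector, and 5070 and 5638 in the rescue arrays. Against the vector mean, the rescue arrays were higher by 2.34 and 2.60.

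The 3 Tfpi probes all stood higher in the knockdown but differed in size. The brightest, for transcript NM_001177319, gave -1.31, -1.50 and -1.31 against -2.55, -3.19 and -3.15, a difference of 1.59 ± 0.16. The second, for NM_011576, gave 1.01, 1.19 and 1.19 against -0.77, -0.90 and -0.88 (1.98 ± 0.07). The third, for the same transcript, gave 0.29, 0.30 and 0.38 against -0.19, -0.10 and -0.13 (0.46 ± 0.05). None of the 3 overlapped between groups, and the third was the dimmest, with Cy5 signals of at most 173 in the knockdown. In vector the first probe was well above background on 2 of 3 arrays and the second on 1 of 3.

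Tfpi2, a related inhibitor that acts on plasmin and other matrix proteases, was bright in 1 group alone. Its log2 ratio was 2.78, 3.20 and 3.06 in the knockdown and 0.12, 0.03 and 0.15 in vector, and 0.13 and 0.19 in the wild-type and W391D rescue arrays. The difference between knockdown and vector was 2.91 ± 0.10, and the knockdown arrays stood apart from the other 5. The Cy5 signal was 856, 1362 and 1128.5 in the knockdown. It was 73, 122 and 103 in vector over backgrounds of 57.5, 68.5 and 72.5, and well above background on 1 of those 3 arrays. For Tfpi and Tfpi2 the size of the difference depended on how background was handled. By the log ratios of the scanner software it was 4.79 for Tfpi2 and 2.88, 4.19 and 1.34 for the 3 Tfpi probes in the order above, and from the Cy5 channel alone 3.85, 1.58, 2.45 and 0.50.

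**Figure D2:**
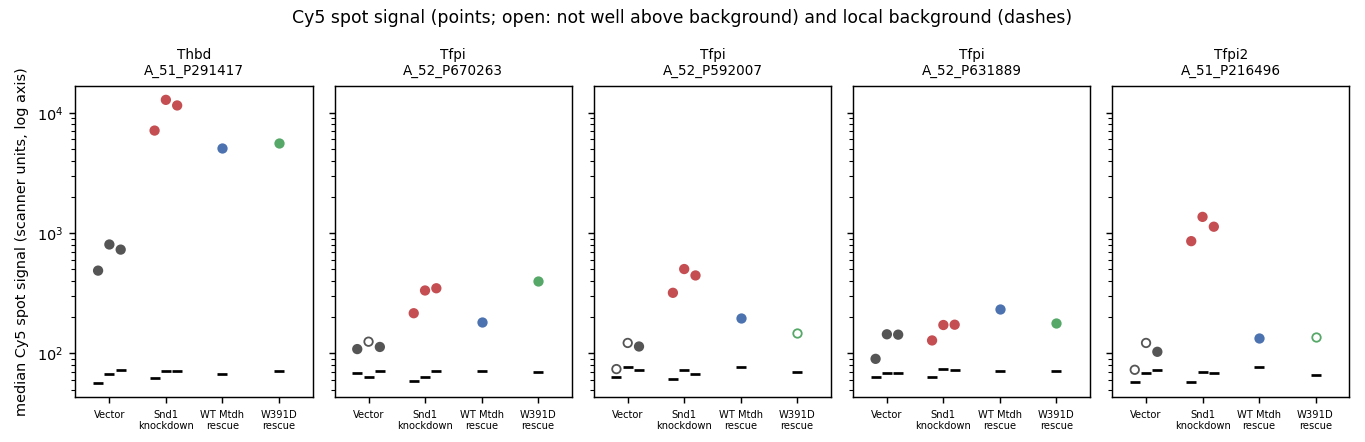
Median Cy5 spot signal in scanner units on a log axis for the Thbd, Tfpi and Tfpi2 probes, with 1 point per array (open where not well above background) and a dash for the local background. Thbd lies far above background in every group, whereas Tfpi2 lies near it outside the knockdown arrays.

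The thrombin receptor F2r showed a small difference with little spread. It stood at -0.60, -0.59 and -0.55 in the knockdown and -0.77, -0.80 and -0.83 in vector, which did not overlap, a difference of 0.22 ± 0.04 (SE, n = 3 and 3). With each array centred on its median in place of loess the difference was 0.12 and was not called, and from the Cy5 channel alone it was again 0.22 but was not called. The wild-type rescue array, at -0.77, lay within the vector range, and the W391D array, at -0.99, below it.

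Of the plasminogen activators, Plat stood higher in the knockdown by its brighter probe and Plau did not. The brighter Plau probe gave 0.71, 0.80 and 0.64 in the knockdown and 0.98, 0.88 and 0.88 in vector, without overlap (-0.20 ± 0.06). The other Plau probe overlapped, with 0.90, 1.01 and 0.83 against 0.87, 1.18 and 0.96 (-0.09 ± 0.09). The lower value of the brighter probe was no longer called without knockdown replicate 3 or without vector replicate 1 (-0.16 in each case), or within the slide of replicates 2 and 3 (-0.16). From the Cy5 channel alone it was -0.34, and with arrays centred on their medians -0.38.

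Urokinase stood higher in the rescue arrays than in either group of the WTA line. In the wild-type and W391D rescue arrays the brighter Plau probe stood at 2.50 and 2.51, 1.59 and 1.60 above the vector mean, and the other probe at 1.70 and 1.67, 0.70 and 0.66 above it. The Cy5 signals of the brighter probe were 8528 and 7718 in the rescue arrays and 1435, 2432 and 2292 in vector. Both rescue arrays lay above every array of the WTA line by both probes.

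Tissue-type activator was higher in the knockdown by 1 of its 2 probes. The brighter Plat probe gave -0.12, -0.13 and -0.20 in the knockdown against -0.51, -0.43 and -0.54 in vector, a difference of 0.34 ± 0.05 that was 0.21 when arrays were centred on their medians. The other Plat probe gave 0.02, 0.31 and 0.22 against -0.02, 0.20 and 0.00, which overlapped (0.13 ± 0.09). The rescue arrays stood at -0.11 and -0.13 by the brighter probe, level with the knockdown arrays and above every vector array.

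The urokinase receptor was higher in the knockdown by both probes. The brighter Plaur probe gave 1.72, 1.79 and 1.78 against 1.27, 1.26 and 1.21 in vector (0.52 ± 0.05), and the other 2.15, 2.09 and 2.13 against 1.55, 1.52 and 1.44 (0.62 ± 0.05). Neither overlapped, and the spread within each group was a small part of the difference. The rescue arrays stood at 1.29 and 1.35 by the brighter probe, close above the vector arrays, and at 1.28 and 1.51 by the other.

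Serpinb2, which inhibits urokinase, stood far above the reference in every group. The brighter probe gave 2.86, 3.01 and 2.94 in the knockdown and 2.46, 2.34 and 2.41 in vector (0.53 ± 0.06). The other gave 3.30, 3.63 and 3.67 against 2.93, 2.89 and 3.07 (0.57 ± 0.10). Neither overlapped between groups, and by both probes the rescue arrays lay between 2.44 and 2.99, near the vector arrays. From the Cy5 channel alone the differences were 0.94 and 0.92, and by the log ratios of the scanner software 0.35 and 0.42, of which the second was not called. In that channel the W391D array, at 11.06 and 11.26, lay above every vector array. The wild-type rescue array, at 10.58 and 10.74, lay within their range.

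**Figure D3:**
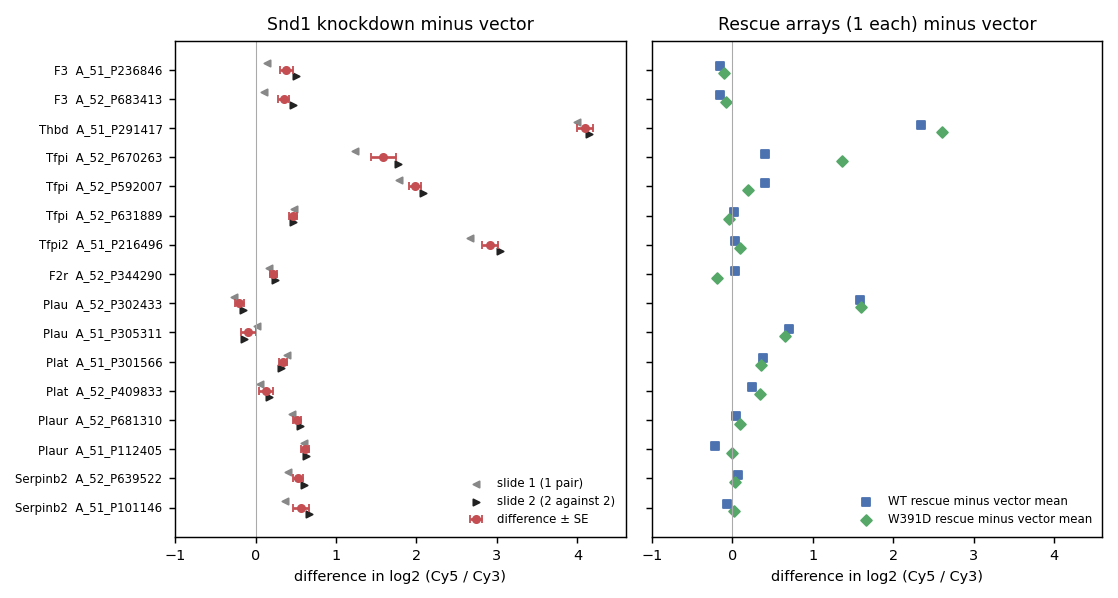
Differences in log2 ratio for the 16 probes, at left knockdown minus vector with the SE from limma and the value within each slide, and at right each rescue array minus the vector mean. Thbd, Tfpi2 and all but the dimmest Tfpi probe stand out at left, and Thbd and Plau at right.

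Mutation of the Snd1-binding residue was set against wild-type Mtdh in the KO2 line, with 1 array each and therefore no replicate check. The arrays were on separate slides, so mutation and slide cannot be told apart. Mtdh itself also differed, with W391D minus wild-type at -0.52 by its brighter probe and -0.18 by the other. The part of that difference in the values below was not tested. Of the 16 probes, 1 was higher by more than 1.5-fold in the W391D array and none lower, where 0.179% of 35206 probes passed that fold (0.0653% higher and 0.114% lower). That probe was the brightest of Tfpi, at -1.60 against -2.57, a difference of 0.96. The third Tfpi probe gave -0.06. The second Tfpi probe and the Tfpi2 probe were not well above background in the W391D array, so no size is drawn from them. By the log ratios of the scanner software 2 member probes were higher and 1 lower past 1.5-fold, but only the first Tfpi probe (1.48) was well above background in both arrays, and the others were Tfpi2 and the second Tfpi probe. For Thbd the W391D array was 0.26 higher, and the remaining members differed by -0.22 to 0.22. From the Cy5 channel alone Plaur stood at 13.91 and 12.16 in the W391D array against 13.40 and 11.59 in the wild-type array. Serpinb2 stood at 11.06 and 11.26 against 10.58 and 10.74. Other members went either way, with F2r at 12.98 against 13.19.

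Set against the vector mean, 4 member probes were higher by more than 1.5-fold in the mean of the rescue arrays and none lower, where 9.53% of 36985 probes passed that fold (6.15% higher and 3.39% lower). They were Thbd, both Plau probes and the brightest Tfpi probe. The Tfpi value rested on the W391D array, which stood 1.36 above the vector mean, with the wild-type rescue array at 0.40. Knockdown and rescue arrays are both read here against the same 3 vector arrays, so these values are not independent of the differences above.

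The genes most like Thbd over the 8 arrays, by root mean square distance of values centred on vector among 17242 named genes, were Timp1 (0.19), Tbx3 (0.38), Pmaip1 (0.47), Hexa (0.49) and Ripk3 (0.52). Timp1, an inhibitor of matrix metalloproteinases, stood 3.94 above vector in the knockdown and 2.54 and 2.75 above it in the wild-type and W391D rescue arrays. The genes most like the brighter Plau probe were Traf1 (0.08), Zfhx3 (0.09), Tead1 (0.10), Slc7a1 (0.10) and Map3k14 (0.11). Their knockdown differences ran from -0.27 to -0.11 and their rescue values from 1.42 to 1.71 above vector.

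The other genes of the pathway were taken from a list of 43 coagulation and plasminogen genes, each by its brightest probe. They were not picked for how they moved, but earlier results of these data were known when the list was made. In the knockdown, 6 of the 40 that passed the filter rose and 9 fell at an adjusted p under 0.05 in limma, against 26.0% and 25.5% of 17243 named genes (51.5% in either direction), and the median difference was 0.01 against 0.015. The counts were the same adjusted over the list alone. With a signal well above background required on all 6 arrays, 6 rose and 7 fell. The share that rose was below the background and the share that fell near it.

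Among 8 measured anticoagulants, 2 rose and none fell, where 26% of all named genes rose and 25.5% fell. Procr, the protein C receptor that works beside thrombomodulin, stood at 2.16, 2.25 and 2.31 in the knockdown and 0.29, 0.21 and 0.22 in vector. That difference, 2.00 ± 0.05 (adjusted p = 6.69e-08), was larger than the spread in either group. Pros1, the protein S cofactor of activated protein C, stood at 0.70, 0.58 and 0.80 against -0.29, -0.05 and -0.11 and rose by 0.85 ± 0.08 (adjusted p = 4.19e-05). Protein C itself (Proc) gave -0.13 ± 0.07 and antithrombin (Serpinc1) 0.00 ± 0.07, and neither passed the test.

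Of 13 genes of the plasminogen system, 4 rose and 4 fell, against 26% and 25.5% of all named genes. The endocytic receptors Lrp1 (0.72 ± 0.05) and Vldlr (0.58 ± 0.04), which clear protease-inhibitor complexes, rose, as did the collagen receptor Mrc2 (0.61 ± 0.10) and the plasmin inhibitor Serpinf2 (0.42 ± 0.04). Other probes gave 0.10 for Vldlr and 0.09 for Mrc2. Anxa2 (-0.60 ± 0.06) and S100a10 (-0.49 ± 0.05), which form a surface complex that binds plasminogen, fell, and so did the plasminogen receptor Plgrkt (-0.26 ± 0.04) and the inhibitor Serpini1 (-0.25 ± 0.04). S100a10 and Serpini1 were not called from the Cy5 channel alone. Plasminogen (Plg; 0.24 ± 0.22) and Serpine2 (0.25 ± 0.12), another inhibitor of urokinase and thrombin, did not pass the test.

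Of 16 measured coagulation factors none rose and 4 fell, and of 3 protease-activated receptors 1 fell. The shares over all named genes were 26% and 25.5%, and nothing is read from the counts by role. Prothrombin (F2) stood at -0.37, -0.51 and -0.51 in the knockdown and 0.11, 0.04 and -0.03 in vector (-0.50 ± 0.06, adjusted p = 1.72e-04). F12 gave -0.40 ± 0.08, with the knockdown well above background on 1 of 3 arrays, and F13b -0.14 ± 0.04. Kng1, counted among the 4, was not well above background on any knockdown array and passed the filter through the vector arrays alone. It was at least 1.26-fold lower in the knockdown, and no p-value is read from it. Its other probe, not well above background on any array, gave -0.08. By the log ratios of the scanner software F2 gave -1.11 and F12 -1.01, so these sizes depend on the processing. F10 did not pass the test (-0.04 ± 0.07). F2rl1 (PAR2) fell by 0.44 ± 0.06 here but stood 0.14 higher by the log ratios of the scanner software (limma adjusted p = 0.731), so its direction depends on the processing.

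**Figure D4:**
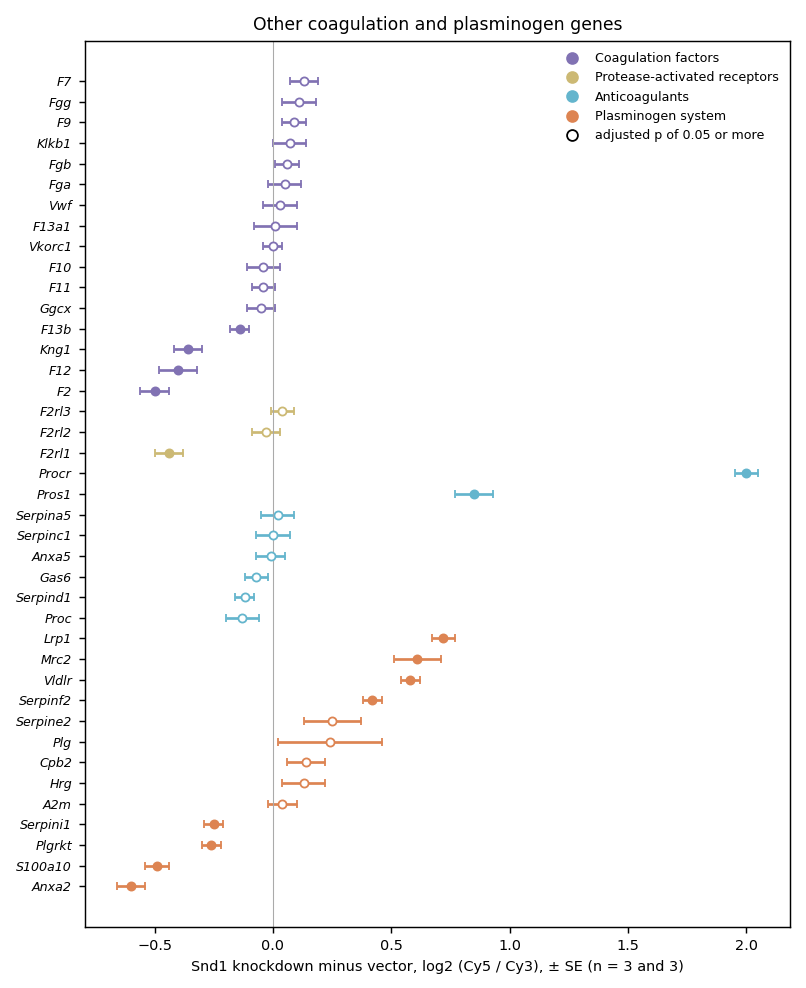
Knockdown minus vector in log2 ratio, ± SE, for the 40 other coagulation and plasminogen genes that passed the filter, by role, filled where the adjusted p was under 0.05. Procr lies farthest to the right, and F2rl1, at the left, changes sign under the log ratios of the scanner software. Kng1 was not well above background on any knockdown array.

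Markers of cells that also express these genes were read on the same arrays. Over all named genes 26% rose and 25.5% fell in the knockdown. Of 8 tested fibroblast genes 6 rose and none fell. Postn (2.72), Pdgfrb (2.44) and Col1a1 (2.39) rose most. Col1a2 (0.40), Pdgfra (0.19) and Col3a1 (0.16) rose by less, and Lum and Dcn did not pass the test. The summed normalised Cy5 signal of the fibroblast list was 11700 to 13400 against 5000 to 5410 in vector and 4640 and 4540 in the rescue arrays. Of 8 tested endothelial genes 2 rose and 2 fell (2770 to 3060 against 2360 to 2510, and 1730 and 1980), with Pecam1 at 0.04 ± 0.05 and Tek not well above background on any array. Of 6 tested leukocyte genes 1 rose and 2 fell (4200 to 4350 against 5030 to 5550, and 6000 and 6340), and Itgam was not well above background on any array. Of 6 platelet genes 3 rose (1540 to 1650 against 1010 to 1100, and 1480 in each rescue array). Ppbp rose by 1.26, Itga2b by 0.31 and Pf4 by 0.17. Among the 8 luminal genes 6 fell and 1 rose (196000 to 211000 against 250000 to 292000, and 306000 and 334000). Of 6 basal genes 2 rose and 3 fell (10300 to 11200 against 15900 to 16300, and 35200 and 32400). Hepatocyte genes, of which 4 were tested, did not pass the test. The part of these markers in the members' differences was not tested.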

How the data were processed

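The scanner files hold spot intensities as deposited (the median pixel of each dye, with its local background), made with Agilent Feature Extraction 11.0.1.1 per the file headers (9.5.3.1 per the submitters' processing notes). Per the file headers they also hold log10 ratios of Cy5 to Cy3, for which the software had subtracted background and normalized the dyes. The deposited series table holds log2 ratios that matched the log10 ratios of their own arrays (r of 0.9878 to 1; 93.9% to 98% of 41156 probes equal within 0.01). They were not centred, with column medians of 0.026 to 0.146.

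Background was corrected by normexp with an offset of 50, and loess was applied within each array (limma 3.58.1, R 4.3.3). The offset shrinks log ratios of dim spots. Control spots (1639 per array) and outlier spots (77 to 142) were left out, no spot was saturated, and spots of a probe were averaged. Accessions named 27668 of 41174 probes through a RefSeq table of GRCm38.p6, used for names only, the array's design being on mm9.

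Knockdown and vector were compared probe by probe with lmFit and eBayes, with Benjamini-Hochberg adjustment over 33563 probes. For lists, each gene was taken by its brightest probe. The fit was tested on simulated data. Single rescue arrays were compared by a fold of 1.5. Bounds and summed signals use Cy5 after loess and Aquantile. Knockdown and vector arrays share replicate numbers. Arrays of one number deviated together from the group means (correlations of 0.570, 0.308 and 0.312), and an alternative treated them as pairs; pairs on the same slide with other numbers correlated at 0.369 and 0.216.

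Named genes were all members, Snd1 and Mtdh as a check of the labels (Mtdh gave -0.12 ± 0.06 and 0.05 ± 0.06 by 2 probes in the knockdown and passed no test), up to 8 other pathway genes called in each direction plus Serpine2, Plg, F2, F10 and Plgrkt, and the 5 genes nearest to the extreme members. Further genes are named only to describe a list. One gene of the rule and of the pathway list is not reported here. Members and lists were chosen with earlier results of these data known. Alternatives were other background corrections and normalizations, the software's ratios, the series table, the Cy5 channel alone, other filters, blocks for replicate number and slide, and each array left out.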

Additional observations from a re-analysis of the deposited data

How the results depend on the processing

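Over the alternatives run, the knockdown differences of member probes gave 310 values, of which none changed direction, 301 kept their side of the threshold and 9 lost their call. The count of member probes called lower, 1 (Plau), went to 0 with scaling between arrays, within the slide of replicates 2 and 3, at an adjusted p under 0.01, and without knockdown replicate 3 or vector replicate 1, so it ran from 0 to 1 over the arrays left out. Members called higher numbered 8 in place of 13 with 1 probe per gene, since fewer probes were then tested. Probes called higher over the array numbered 4894 from the Cy5 channel alone, against 7918; the cause was not tested. Past 1.5-fold between the rescue arrays there were 2 member probes higher and 1 lower by the software's log ratios and by the series table, against 1 and 0. F2rl1 turned to 0.14 under both. With the replicate number as a block (paired fit), 9040 probes were higher and 8112 lower, against 7918 and 7415, with 13 and 1 among the members and 7 and 9 among the other pathway genes; that block changed no call on a member. Signal over background limits Tfpi and Tfpi2, and for the rescue arrays the number of arrays limits every value.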

Other observations

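In the rescue arrays of the KO2 line, 2 of 40 other coagulation and plasminogen genes differed from the vector mean by more than 1.5-fold in the mean of both arrays, both of them lower, where 6.15% and 3.39% of all probes were higher and lower. Pros1 stood at -1.01 and -1.13, differences of -0.86 and -0.98 from vector, whereas it was above vector in the knockdown. F2 stood at -0.54 and -0.59, just below its knockdown values. None of the 39 genes well above background on a rescue array differed by more than 1.5-fold between W391D and wild-type Mtdh. Each of these values comes from 1 array per construct and was not tested.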
